A study of Mus musculus with 2 samples.

Results

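B16F10 melanoma cells from perforin-null (Prf1-/-) lungs were ranked by how much of their own hashtag antibody they carried, and the cells with the most hashtag were compared with those with the least across all genes, at matched RNA depth. A cell entered if its barcode held at least 1000 genes and at most 15% mitochondrial UMIs in the RNA library, was listed in the hashtag library, and had the Prf1-/- lung hashtag as its largest, at 2 times the second hashtag or more. This gave 1520 cells of the 15961 barcodes in the RNA library. The ranking was cut into 3 equal parts, called the low, middle and high groups. The low group held 506 cells, with 284 to 672 hashtag counts and a median of 490.0, and the middle group 508, with 673 to 1296 and a median of 925. The high group held 506 cells with 1301 to 8592 counts and a median of 1952. Hashtag counts, the number of genes and the mitochondrial share chose the cells and are given as a description only. At the edge of the rule, the smallest ratio to the second hashtag among these cells was 2.03, and the largest among the cells just outside was 1.99.

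B16F10 is a mouse melanoma line, here carrying GFP. Cells were recovered from 3 sources, namely wild-type (WT) lung, Prf1-/- lung and Prf1-/- bone, the last from knees. Perforin forms the pores through which killer lymphocytes attack their targets, and its gene is missing in the host, not in the melanoma line. Viable GFP-positive cells without CD45 on their surface were sorted after an Fc receptor block, each source was marked with 1 of 3 TotalSeq-B hashtags, and the pool was run once on the 10x 3' v3 chemistry as 1 RNA and 1 hashtag library. Neither the number of mice per source nor the clones of the hashtag antibodies are stated in the labels.

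MHC class I molecules sit on nearly all nucleated cells and show peptides from inside the cell to CD8 T cells. Each is a heavy chain, such as H-2K (H2-K1) or H-2D (H2-D1), paired with beta-2 microglobulin (B2m). The peptides are cut by the proteasome, pumped into the endoplasmic reticulum by TAP and loaded with the help of tapasin, and interferons raise most of these genes, including those of the immunoproteasome. B16 melanoma is known for little class I on its surface until it meets interferon. Mouse hashtag reagents are commonly sold as mixtures of antibodies to CD45 and to MHC class I, so the amount of hashtag a cell binds may be read beside its class I RNA. Hashtag counts measure bound antibody, not RNA, and come from a separate library.

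All cells of the contrast come from 1 source in 1 run. Cells are not replicates, so no test was made and no p-value is given. Each cell was thinned once to 1500 RNA UMIs, which left out 1 low cell and gave 757500, 762000 and 759000 UMIs in the low, middle and high groups. Levels are UMIs per 1000000 of the group's total (CPM). Ratios are CPM in the high group over CPM in the low group, with 95% exact intervals for counting error, which leave out the spread among cells or mice. A gene was measured if the low and high groups averaged 20 CPM or more. It was called higher or lower if its CPM differed by a factor of 5 to 4 or more and the interval of the ratio did not include 1.

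Of 5718 measured genes, 148 were higher in the high group, 2.59% of all, and 157 were lower, 2.75%. The median log2 ratio over all measured genes was -0.003, and the central 90% of them lay between -0.60 and 0.57. Most single calls changed with the thinning: a second random thinning of the same cells called 128 higher and 150 lower, of which 53 and 36 were among the first. The genes below are therefore described by their lists, and a share of a list near 2.59% or 2.75% is no result about the list. The 3 lists of class I chains, class I peptide loading and interferon-induced genes had 40 measured members together, of which 21 were higher and 0 lower, and they made up 14.2% of the genes called higher. Members that were measured through 1 group only had to differ. Over the 34 members at 20 CPM or more in both groups, 16 were higher and 0 lower.

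**Figure D1:**
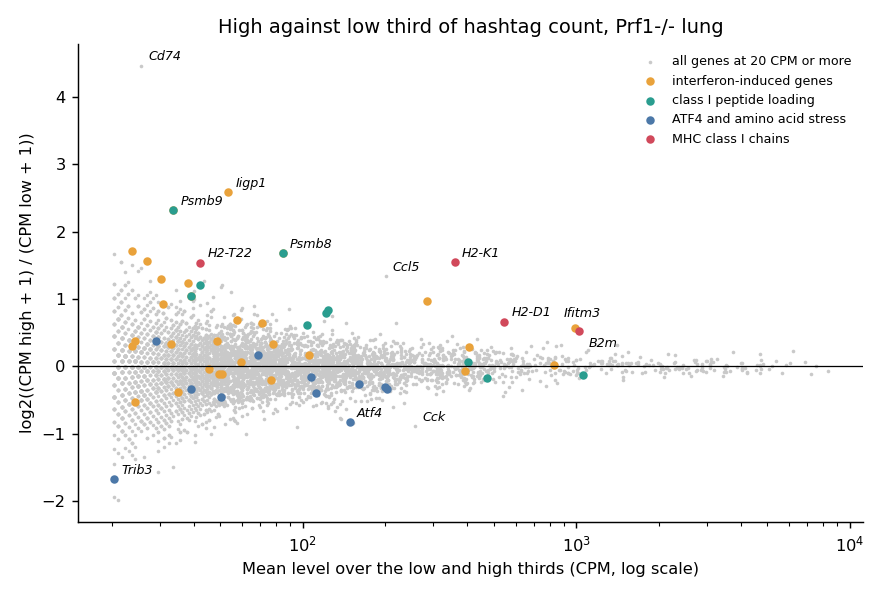
Each point is 1 of the 5718 measured genes of the Prf1-/- lung cells, by its mean level over the low and high groups (CPM, log scale) and its log2 ratio of high over low with 1 CPM added to each side. A gene on several lists has 1 colour. The 4 class I chain genes lie between 0.53 and 1.54, while the central 90% of all genes lie between -0.60 and 0.57.

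The promoters of class I genes are known to carry an interferon-stimulated response element (ISRE) and a kappa-B site, and a gamma-activated (GAS) element is another target of interferon signalling. The 190 bases upstream of the start of 4 genes that were higher are shown, since these genes are described first. Sequences are from RefSeq on GRCm38.p6, 5′ to 3′ on the gene's own strand, with matches in capitals. The windows are chr17:34000348-34000537 on the minus strand for H2-K1, and on the plus strand chr17:35262904-35263093 for H2-D1, chr2:122147497-122147686 for B2m and chr17:34198005-34198194 for Psmb8. Of 2 listed starts of H2-K1, the first was used. The gene's annotated interval, given below, extends farther upstream than this start, so the window lies within it, and not before it as in the other 3. The letters searched on both strands were GAAANNGAA or GAANNGAAA for an ISRE core, TTCNNNGAA for a GAS element and GGGATTCCC for a kappa-B core.
H2-K1: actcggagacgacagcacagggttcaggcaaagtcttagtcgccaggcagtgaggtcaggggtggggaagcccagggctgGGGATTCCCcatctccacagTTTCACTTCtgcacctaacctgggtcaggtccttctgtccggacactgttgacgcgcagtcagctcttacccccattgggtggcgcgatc
H2-D1: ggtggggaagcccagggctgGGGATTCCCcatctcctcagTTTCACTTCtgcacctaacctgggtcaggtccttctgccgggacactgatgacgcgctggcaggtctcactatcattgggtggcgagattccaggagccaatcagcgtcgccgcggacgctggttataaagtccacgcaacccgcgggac
B2m: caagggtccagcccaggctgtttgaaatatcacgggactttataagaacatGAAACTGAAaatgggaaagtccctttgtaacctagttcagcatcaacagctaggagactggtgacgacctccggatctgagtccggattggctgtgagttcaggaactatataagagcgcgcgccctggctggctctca
Psmb8: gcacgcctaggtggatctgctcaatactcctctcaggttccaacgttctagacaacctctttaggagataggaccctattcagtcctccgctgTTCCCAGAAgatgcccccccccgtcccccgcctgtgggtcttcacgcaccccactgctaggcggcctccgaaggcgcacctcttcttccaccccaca
H2-K1 and H2-D1 each hold a kappa-B core, whose first base lies at -110 and -170 from the start, followed by an ISRE core at -90 and -150. B2m holds an ISRE core at -139 and Psmb8 a GAS element at -97. The fourth measured class I gene, H2-T22, holds an ISRE core at -190, and the windows of Psmb9, Tap1, Tapbp and Cxcl10 hold none of these letters. Over 32851 mouse promoters in windows of the same length, 9.32% hold the ISRE letters, 5.19% the GAS letters and 0.198% the kappa-B letters. The kappa-B letters had no open position, so a kappa-B site spelled otherwise was not counted in any window. Their absence does not show that a window lacks such a site. These are matches of letters, not sites shown to be bound in these cells.

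The class I chain genes were higher in the high group, 4 of 4 measured. H2-K1 (ENSMUSG00000061232, chr17:33996012-34000619) stood at 183 CPM in the low group, 332 in the middle and 536 in the high group. Its ratio of 2.92 (2.40 to 3.57) rested on 139 and 407 UMIs, found in 113 of 505 low and 242 of 506 high cells. H2-D1 (ENSMUSG00000073411, chr17:35263094-35267497) stood at 422, 610.2 and 671 CPM, a ratio of 1.59 (1.38 to 1.83). B2m (ENSMUSG00000060802, chr2:122147687-122153082) stood at 839.6, 988 and 1212 CPM, a ratio of 1.44 (1.30 to 1.60). H2-T22 (ENSMUSG00000056116, chr17:36037128-36042742), a class Ib gene, stood at 21.1, 39.4 and 63.2 CPM, a ratio of 2.99 (1.67 to 5.65). In each of the 4 the middle group lay between the ends, and the counting intervals of the low and high groups did not overlap. All 4 passed 20 CPM in the low group alone, so the filter did not force their difference.

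The other class I genes had few UMIs. H2-M3, which presents formylated peptides, stood at 3.96, 7.87 and 14.5 CPM, a ratio of 3.66 (0.967 to 20.4) on 3 and 11 UMIs. H2-T23, the Qa-1 gene, stood at 6.60, 5.25 and 9.22 CPM, a ratio of 1.40 (0.382 to 5.58). H2-Q4 had 2 UMIs, both in the high group, and H2-Q1, H2-Q2, H2-Q6, H2-Q7, H2-Q10 and H2-T24 had 0 in all 3 groups. A count of 0 allows up to 3 UMIs, or 3.96 CPM in the low group and 3.95 in the high group. Class I heavy chain genes are near-identical over long stretches, and how reads that fit several of them were counted is not given, so the split between them is uncertain. The sum of the whole list, B2m included, is the same however reads are split among them, though reads dropped for fitting several would be missing. It stood at 1477, 1983 and 2509 CPM, a ratio of 1.70 (1.58 to 1.83).

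With the ranking cut into 10 equal bins, H2-K1 stood at 171, 168, 232, 206, 316, 338, 417, 456, 504 and 697 CPM from the lowest to the highest bin. The lowest bin had a median of 394.5 hashtag counts and the highest 3565, and their H2-K1 intervals, 122 to 234 and 593 to 815 CPM, did not overlap. The whole list of class I chains went from 1338 to 2763 CPM, and H2-D1 from 373 to 772. Actb, a cytoskeletal actin gene, went from 3776 to 4351 CPM, and Gapdh, a glycolytic enzyme gene, from 3825 to 3886. The Actb intervals of these bins, 3528 to 4037 and 4084 to 4630 CPM, did not overlap either, while those of Gapdh did. Pmel, a pigment cell gene, went from 3719 (3473 to 3978) to 3101 (2876 to 3338). Intervals that do not overlap are thus not limited to the class I genes. Cell by cell, over 1519 cells thinned to the same depth, Spearman's rho between hashtag count and UMIs was 0.24 for H2-K1, 0.21 for the class I chains, 0.13 for H2-D1 and 0.13 for B2m. It was 0.04 for Actb, 0.02 for Gapdh and -0.07 for Pmel. These are weak values in sparse counts that share 1 library, and 35.1% of the cells held any H2-K1 UMI after thinning.

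**Figure D2:**
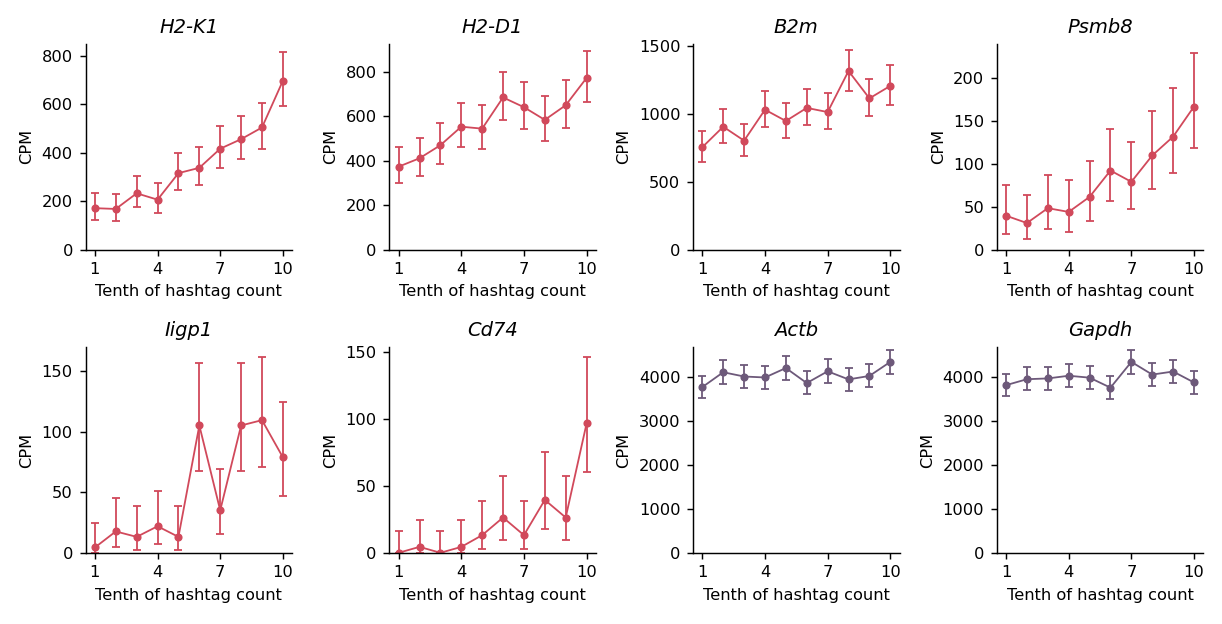
Level of 8 genes (CPM, linear axis from 0) in 10 bins of the Prf1-/- lung hashtag count, with 151 or 152 cells and 1500 UMIs per cell in each bin; bars are exact 95% Poisson intervals for counting error. H2-K1 goes from 171 CPM in the lowest bin to 697 in the highest, Cd74 from 0 to 96.5, and Actb and Gapdh stay between 3768 and 4355 CPM.

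Peptide loading and immunoproteasome genes were split. Of 10 measured members 7 were higher and 0 lower, with a median log2 ratio of 0.82. Without Psmb9, which fell under 20 CPM in the low group, 6 of 9 were higher, with a median of 0.79. Psmb8, which cuts peptides within the immunoproteasome, stood at 39.6, 72.2 and 129 CPM, a ratio of 3.26 (2.15 to 5.09). Psmb9, another of its cutting subunits, stood at 10.6, 18.4 and 56.7 CPM, a ratio of 5.36 (2.49 to 13.2). Psmb10, the remaining such subunit, had a ratio of 1.80 (1.33 to 2.47), and the activator genes Psme1 and Psme2 had 1.74 (1.28 to 2.39) and 1.53 (1.099 to 2.14). Tap1, a subunit of the peptide pump, had a ratio of 2.10 (1.19 to 3.84) and Tapbp, which encodes tapasin, 2.36 (1.35 to 4.28). Of 22 alternatives, Tap1 kept the call in 14, Psme2 in 16 and Tapbp in 17. The tallies of 22 here and below include alternatives that could not or could hardly change a call, named at the end, so they overstate stability. Psmb8, Psmb9, Psmb10 and Psme1 each kept it in 21.

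The 3 measured members that were not called are the general folding helpers of the endoplasmic reticulum. Calr (calreticulin) stood at 1102, 965 and 1009 CPM, a ratio of 0.916 (0.829 to 1.01), Pdia3 had 0.890 (0.766 to 1.03) and Canx (calnexin) 1.05 (0.892 to 1.23). The wider list of secretory pathway and folding genes had 0 of 26 members called in either direction and a median log2 ratio of -0.01. Tap2, Tapbpl, Erap1 and Nlrc5, the class I transactivator gene, were under 20 CPM, with ratios of 2.25 (0.627 to 9.98), 1.60 (0.461 to 6.20), 0.998 (0.230 to 4.34) and 2.495 (0.409 to 26.2).

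The gene of the other usual hashtag target was not seen. Ptprc, which encodes CD45, had 0 UMIs in all 1520 cells before thinning, among 4726709 UMIs, which allows up to 0.635 CPM. The sort had removed cells with surface CD45. Fc receptors can bind antibodies by their constant part. Their 6 genes summed to 14.5, 17.1 and 18.4 CPM, a ratio of 1.27 (0.536 to 3.09), and none reached 20 CPM. Genes of abundant surface proteins that are no usual hashtag target were mostly not called. Of 20 measured, 1 was higher (Nrp2, neuropilin 2, ratio 1.81, 1.26 to 2.63) and 1 was lower (Slc3a2, the CD98 heavy chain, 0.718, 0.562 to 0.915). Of 22 alternatives, Nrp2 kept the call in 17 and Slc3a2 in 18. Nrp2 lost it, among others, when cells were paired on RNA UMIs, at 2500 UMIs and with a second thinning. The median log2 ratio of the 20 was -0.001, with Cd63 at 2195, 2097 and 2042 CPM and Cd44 at 234, 268 and 244.

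MHC class II genes, whose products show peptides to CD4 T cells and which interferon-gamma can switch on in tumour cells, were rare. Cd74, the invariant chain gene (ENSMUSG00000024610), stood at 1.32, 15.7 and 50.1 CPM, with 1, 12 and 38 UMIs in 1, 12 and 30 cells. Its ratio was 37.9 (6.41 to 1537), and it was measured only through its level in the high group. The other 6 members were all under 20 CPM. H2-Aa stood at 1.32, 10.5 and 13.2 CPM, and H2-Ab1 at 1.32, 0 and 9.22. The sum of the 7 genes stood at 13.2, 40.7 and 104 CPM, a ratio of 7.88 (4.07 to 17.1). Professional antigen-presenting cells make far more of these genes, and their own markers stood at 5.28, 2.62 and 5.27 CPM, with 11 of 14 at 0.

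Interferon-induced genes were higher in part. Of 29 measured members 13 were higher and 0 lower, with a median log2 ratio of 0.37, and without the members shared with the peptide loading list 10 of 26 were higher, with a median of 0.34. Over the 23 members at 20 CPM or more in both groups, 8 were higher and 0 lower, with a median of 0.33. Iigp1, an immunity-related GTPase gene (ENSMUSG00000054072), stood at 14.5, 44.6 and 92.2 CPM, a ratio of 6.35 (3.34 to 13.3). Irgm1, of the same family, stood at 10.6, 38.1 and 36.9 CPM, a ratio of 3.49 (1.55 to 8.87), and Zbp1, a nucleic acid sensor gene, at 13.2, 21.0 and 40.8, a ratio of 3.09 (1.48 to 7.07). These 3 were measured only through their high group, as were Psmb9 and the GTPase gene Igtp. Of 22 alternatives, Irgm1 and Zbp1 each kept the call in 17 and Iigp1 in 21. Cxcl10, a chemokine that draws T cells, stood at 193, 257 and 377 CPM, a ratio of 1.96 (1.60 to 2.40). Ifitm3, which restricts virus entry, stood at 795, 959 and 1181 CPM, a ratio of 1.49 (1.34 to 1.65).

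Some other members of the same list were not called. Ifi27 stood at 824, 791 and 833 CPM, a ratio of 1.01 (0.904 to 1.13). Isg15, Ifit1 and Ifit3, classic targets of type I interferon named here after their values were seen, had ratios of 0.970 (0.587 to 1.60), 0.921 (0.569 to 1.49) and 1.13 (0.819 to 1.56). They do not stand for all such targets. Rsad2, also induced by interferon, was called higher in all 3 sources, and Gbp2 and Ifi35 in Prf1-/- lung and WT lung. Ccl5, another T-cell chemokine, was called higher. It stood at 114, 180 and 289 CPM, a ratio of 2.54 (1.97 to 3.30), but its UMIs lay in 26 low and 39 high cells, and 1 high cell held 42 of 219. Apol9b, an interferon-responsive apolipoprotein gene with a near-identical copy, was also called higher. It stood at 13.2, 28.9 and 40.8 CPM, a ratio of 3.09 (1.48 to 7.07), was measured only through its high group and kept the call in 16 of 22 alternatives.

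The contrast was also made apart in cells with fewer and in cells with more interferon UMIs. The cells were split at the median of their summed interferon UMIs, class I genes left out, and ranked anew within each part. This split was chosen after the data were seen. Among cells at or under the median, H2-K1 had a log2 ratio of 1.39, B2m 0.38 and H2-D1 0.33, all called higher. Among cells above it the log2 ratios were 1.51, 0.48 and 0.70, also called higher. H2-T22, the other measured chain, went from 1.105, not called, to 2.07, called. Psmb8 went from 0.64, not called, in the first set to 1.96, called, in the second, and Iigp1 from 1.30, not called, to 2.86, called. Cells with fewer interferon UMIs have fewer counts of these genes by the split itself. Interferon UMIs still vary within each part, so the split does not hold them equal. Above the median Iigp1 still had a log2 ratio of 2.86.

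Genes of the ATF4 response, by which cells short of amino acids or under protein stress adapt, were lower in part. The list of ATF4 and amino acid stress genes had 3 of 11 measured members lower and 0 higher, with a median log2 ratio of -0.34 and sums of 1356, 1147 and 1050.1 CPM. Atf4, the transcription factor that starts this response, stood at 190.1, 142 and 107 CPM, a ratio of 0.561 (0.422 to 0.742). Trib3, a pseudokinase gene it controls, stood at 31.7, 22.3 and 9.22 CPM, a ratio of 0.291 (0.106 to 0.696), and Ddit3, which encodes CHOP, had 0.789 (0.626 to 0.994). Psat1 and Psph, of serine synthesis, had ratios of 1.31 and 1.12, and neither was called. Over the 10 members at 20 CPM or more in both groups, which leaves out Trib3, 2 were lower, with a median of -0.32. Of 22 alternatives, Trib3 and Ddit3 each kept the call in 12 and Atf4 in 18. Atf4 kept its direction but not its call when the cells were thinned with other random draws, at log2 ratios of -0.32 at 1500 UMIs and -0.37 at 2500.

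Cck, the gene of the peptide hormone cholecystokinin, stood at 335, 243 and 181 CPM, a ratio of 0.538 (0.434 to 0.665). Its UMIs lay in 42 low and 35 high cells, with up to 32 in 1 cell, so the interval is too narrow, and the log2 ratio of -0.89 turned to 0.16 after thinning to 2500 UMIs and to 0.68 in cells with at least 1500 genes. Tnfrsf12a, the receptor of the cytokine TWEAK, stood at 197, 157 and 109 CPM, a ratio of 0.556 (0.420 to 0.732). It kept the call in 19 of 22 alternatives, and lost it, among others, when cells were paired on RNA UMIs and at 2500 UMIs. Spp1, which encodes osteopontin, stood at 257, 207 and 169 CPM, a ratio of 0.655 (0.520 to 0.823), and Lgals7, a galectin gene, at 455, 453 and 356, a ratio of 0.781 (0.664 to 0.919). Mc1r, the melanocortin receptor of pigment cells, had a ratio of 0.649 (0.448 to 0.931), but kept the call in only 8 of 22 alternatives, with a log2 ratio as near 0 as -0.056. Spp1 kept its call in 17, and not at 2500 UMIs (-0.31), per RNA UMI (-0.29), at 5 times the second hashtag (-0.23), with 1500 genes or more (-0.35) or in cells with few interferon UMIs (-0.25). Atf3, an immediate-early transcription factor gene, stood at 70.0, 61.7 and 43.5 CPM, a ratio of 0.621 (0.390 to 0.978), and kept the call in 10 of 22. Nceh1, Cdc40, Taf1d, Snhg16, Rap2c, Ift52, Smc5 and Mrgbp were also lower, with ratios from 0.587 for Cdc40 and 0.578 for Nceh1 down to 0.230 for Mrgbp. Mrgbp had 26 and 6 UMIs and Smc5 25 and 6, so both were measured only through the low group. They kept the call in 13 and 12 of 22 alternatives. Ift52 kept it in 19, Nceh1 and Rap2c in 18, Snhg16 in 16, Cdc40 in 15 and Taf1d in 14. With a second thinning Ift52, Cdc40, Taf1d, Mrgbp and Smc5 were not called. The log2 ratio of Ift52 came as near 0 as -0.148.

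Of the cell cycle lists, G2 and M phase leaned higher, with 21 of 30 measured members above a ratio of 1 and 9 below. Of the 30, 2 were called higher (Top2a, 1.34, and Tacc3, 2.495), and the median log2 ratio was 0.20. Tacc3 kept the call in only 9 of 22 alternatives, with a log2 ratio as low as 0.16. It lost the call, among others, with a second thinning and when cells were paired on RNA UMIs. The sum of the G2 and M phase list had a ratio of 1.12 (1.05 to 1.19). The median of that list ranged from -0.43 to 0.45 over 23 alternatives, so the direction was not kept in all of them. In WT lung 27 of 29 members were above 1 and 2 below, and in bone 14 and 13 of 30. The S phase list was close to even, with 2 of 24 called higher and a median of 0.01. Mcm4, a subunit of the replicative helicase, had a ratio of 3.09 (1.48 to 7.07) on 10 and 31 UMIs and was measured only through its high group. Its log2 ratio was -0.03 when cells were paired on RNA UMIs without thinning. Tyms, the thymidylate synthase gene, had 1.72 (1.16 to 2.56) and a log2 ratio of -0.20 when cells were ranked by hashtag per RNA UMI. Hsph1, a heat shock gene with a ratio of 1.49 (1.00 to 2.22), likewise turned, to -0.06 without thinning, -0.11 paired and -0.05 at 2500 UMIs. It does not stand for the list of immediate-early and heat shock genes, which leaned slightly lower. Of 25 measured members 4 were above a ratio of 1 and 21 below, with 1 called higher and 2 lower. The median log2 ratio was -0.13, and the sum had a ratio of 0.947 (0.924 to 0.970).

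Other lists lay near 0. Median log2 ratios were -0.03 for 30 ribosomal protein genes, 0.07 for 28 nuclear oxidative phosphorylation genes, 0.05 for 20 glycolysis and hypoxia genes, -0.03 for 19 pigmentation genes, -0.07 for 20 actin cytoskeleton genes, 0.04 for 23 lysosome genes and 0.05 for 19 cholesterol synthesis genes, with at most 1 member called on each. The 12 measured mitochondrially encoded genes lay at 0.14, all above 0, with none called. Of the genes that led clusters in an earlier clustering of this run, Nrp2 and S100b were higher and Lgals7, Spp1 and Cck lower. S100b, a calcium-binding protein gene, stood at 112, 113 and 175 CPM, a ratio of 1.56 (1.18 to 2.08). Fn1, the fibronectin gene, stood at 11.9, 13.1 and 32.9 CPM, a ratio of 2.77 (1.252 to 6.75) on 9 and 25 UMIs, was measured only through its high group and kept the call in 11 of 22 alternatives. The genes of the earlier clusters were picked on these same cells, so their split is no separate evidence.

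**Figure D3:**
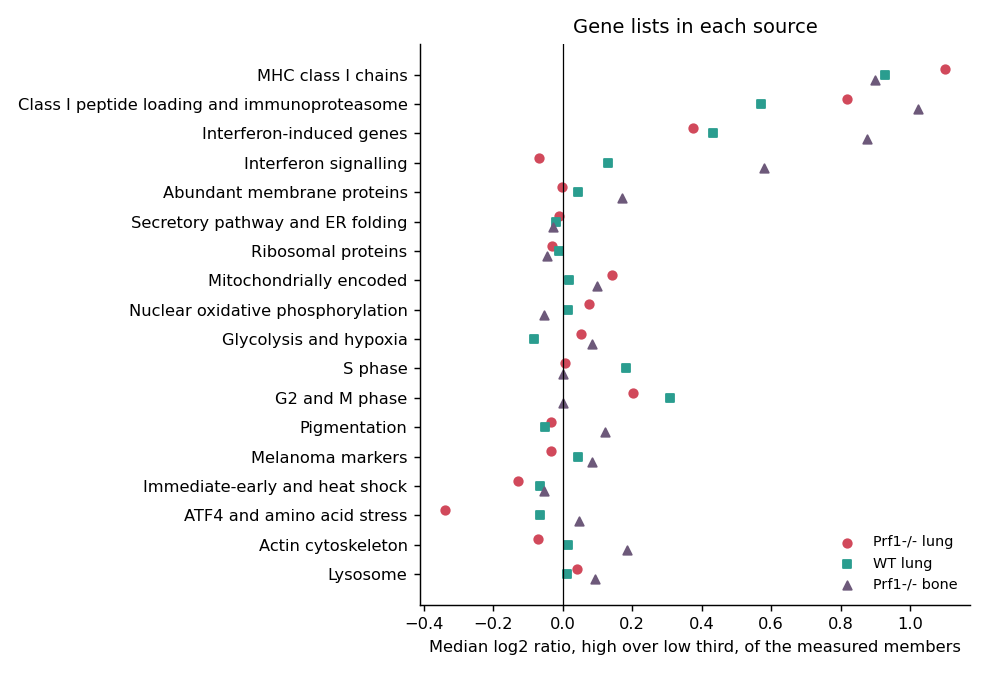
Median log2 ratio, high over low group, of the measured members of 18 gene lists in each source (points, by source, with no interval). MHC class I chains lie at 1.102, 0.93 and 0.90 in Prf1-/- lung, WT lung and Prf1-/- bone, while ribosomal and secretory lists lie within 0.05 of 0 in all 3.

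Cells with more hashtag also had more RNA. Medians of RNA UMIs were 2669.5, 2807.5 and 3066 in the low, middle and high groups, medians of genes 1361, 1391 and 1468.5, and medians of the mitochondrial share 2.40%, 2.44% and 2.55%. Over the 1520 cells Spearman's rho with hashtag count was 0.17 for RNA UMIs. The second hashtag did not go with the first, at medians of 104, 102 and 104 counts and a rho of 0.01, although the highest second hashtag was 309 in the low group and 920.0 in the high group. The part of RNA depth, gene number and mitochondrial share in the results was not tested beyond the alternatives that follow. The log2 ratios with thinning were 1.54 for H2-K1, 0.67 for H2-D1 and 0.53 for B2m. Other settings gave the values below, and not all of them balance RNA UMIs between the groups before thinning. With all UMIs of cells paired 1 to 1 on RNA UMIs (424 pairs, medians 2826.5 and 2822), the log2 ratios were 1.53 for H2-K1, 0.79 for H2-D1 and 0.63 for B2m. With hashtag count divided by RNA UMIs as the rank, they were 1.80, 0.89 and 0.76. This rank turned the depth difference around, with medians of 2596 RNA UMIs in the high and 3169.5 in the low group before thinning. In cells with the hashtag at 5 times the second or more, thinned as before, the log2 ratios were smaller, at 1.29, 0.35 and 0.32. That cut is on hashtags and not on depth, with medians of 3085 and 2630 RNA UMIs. All 9 were called higher.

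**Figure D4:**
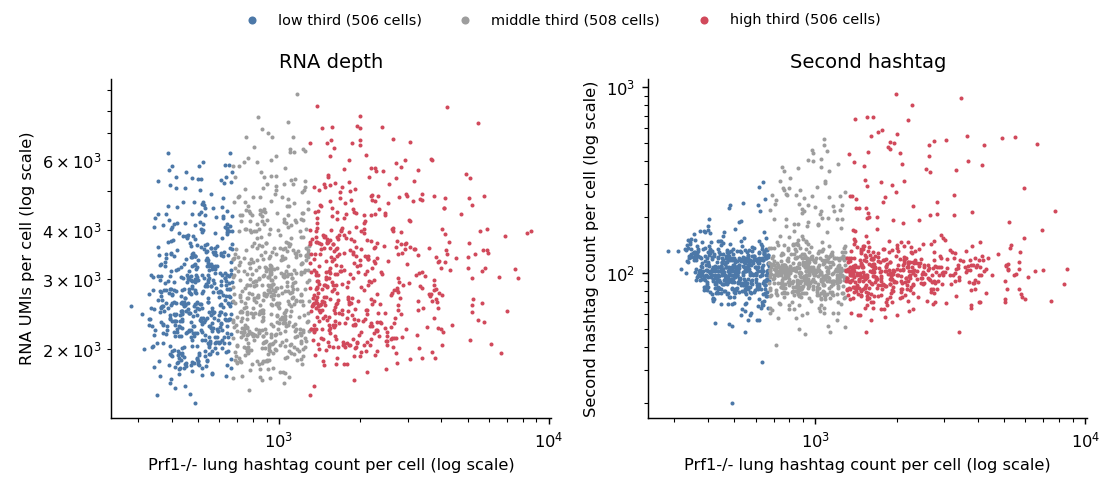
RNA UMIs per cell (left) and the count of the second hashtag (right) against the Prf1-/- lung hashtag count, all on log scales, for the 1520 cells coloured by group. RNA UMIs drift up, with medians from 2669.5 to 3066, and the bulk of second hashtag counts stays near 100, with a fringe of higher values at higher hashtag counts.

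Markers of other cell types were at low levels. T and NK cell markers had 0 UMIs in all groups, with 13 of 13 genes at 0, neutrophil markers summed to 0, 0 and 1.32 CPM, and B and plasma cell markers to 1.32, 2.62 and 2.64. Pan-immune markers summed to 9.24, 5.25 and 6.59 CPM and platelet markers to 2.64, 0 and 0, and red cell markers had 0 UMIs. Alveolar and airway epithelial markers summed to 13.2, 11.8 and 18.4 CPM, with 8 of 13 at 0, endothelial markers to 92.4, 117 and 72.5, and fibroblast markers to 15.8, 5.25 and 3.95, a ratio of 0.25 (0.045 to 0.925). Melanoma markers summed to 13072, 12996 and 12885 CPM, with 0 of 7 called, and Dct stood at 4082, 4052 and 4025. Without the 102 cells that held any UMI of the epithelial, immune, red cell or platelet lists, the ratio of H2-K1 was 2.89 (2.37 to 3.54).

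The same contrast was made in the other sources, whose cells the ranking above did not use. They share no cell with the Prf1-/- lung set, but share the run, the library and its free RNA. WT lung gave 1227 cells, with hashtag medians of 383 and 1108 in groups of 409 cells, and Prf1-/- bone 385 cells, with 404 and 929.5 in groups of 128. In WT lung 2.46% of 5740 measured genes were higher and 1.76% lower, and in bone 2.33% of 5660 were higher and 1.41% lower. The class I chains were higher in 4 of 4 measured members in WT lung and 3 of 5 in bone, peptide loading in 6 of 10 and 5 of 11, and interferon-induced genes in 12 of 34 and 10 of 33, with none lower on these lists. H2-K1 stood at 292 and 686 CPM in WT lung, a ratio of 2.35 (1.97 to 2.82), and at 391 and 729 in bone, a ratio of 1.87 (1.40 to 2.51). H2-D1 had ratios of 1.69 (1.47 to 1.94) and 1.64 (1.30 to 2.08), and B2m 1.46 (1.31 to 1.63) and 1.38 (1.13 to 1.69). Psmb8 had 3.46 (2.49 to 4.87) and 4.35 (2.65 to 7.47), and Iigp1 4.25 (2.80 to 6.67) and 2.24 (1.23 to 4.22). The levels of H2-K1 in the low group were higher in both than the 183 CPM of Prf1-/- lung, but each source had its own hashtag, so hashtag counts cannot be set against each other between sources.

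Of the 148 genes higher in Prf1-/- lung, 27 were also higher in WT lung (18.2% of the first list and 19.1% of the second) and 18 in bone (12.2% and 13.6%). In all 3 sources 14 were higher: B2m, Ccl5, Cd74, Cxcl10, H2-D1, H2-K1, Iigp1, Irgm1, Psmb10, Psmb8, Psmb9, Psme1, Rsad2 and Zbp1. Of these, Cd74, Iigp1, Irgm1, Psmb9 and Zbp1 were measured in Prf1-/- lung only through the high group, so there they had to differ. Of the 157 lower genes, 7 were lower in WT lung (4.46% and 6.93%), among them Tnfrsf12a, 1 in bone (0.637% of the first list, and 1 of 80 there) and 0 in all 3. The ATF4 list had 2 of 11 lower and 1 higher in WT lung, with a median log2 ratio of -0.06, and 1 of 12 lower in bone, with a median of 0.05. Atf4 had ratios of 0.956 (0.670 to 1.36) and 1.11 (0.566 to 2.17) there. Whether these ratios differ between sources was not tested.

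**Figure D5:**
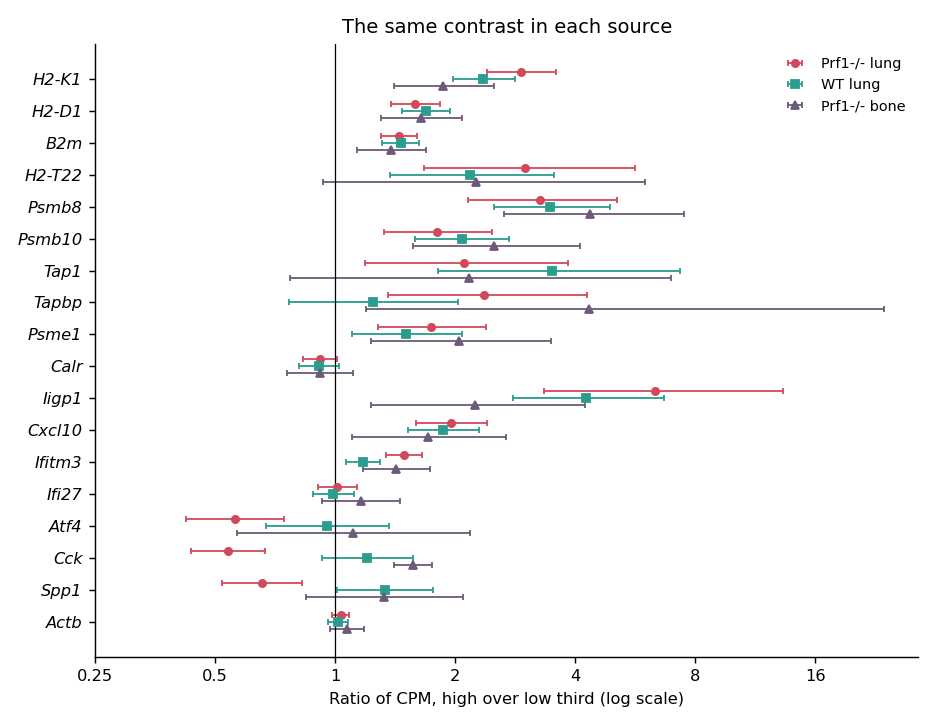
Ratio of CPM in the high over the low group of each source's own hashtag (log scale), with exact 95% counting intervals, for 18 genes. The class I genes H2-K1, H2-D1 and B2m lie right of 1 in all 3 sources, from 1.38 to 2.92, Calr, Ifi27 and Actb near 1, and Cck at 0.538, 1.20 and 1.57.

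In WT lung the high group also held lung epithelial RNA. Alveolar and airway markers summed to 17.9, 39.1 and 683 CPM there, with Sftpc, the surfactant protein C gene, at 564 CPM in the high group, 213 of its 346 UMIs from 1 cell. Lyz2, of macrophages and alveolar cells, stood at 1.63 and 55.4 CPM. Without the 83 WT lung cells that held any UMI of the epithelial, immune, red cell or platelet lists, the WT lung ratios were 2.33 (1.94 to 2.82) for H2-K1, 1.64 (1.42 to 1.90) for H2-D1 and 3.48 (2.45 to 5.02) for Psmb8. In bone, without 43 such cells, they were 1.51 (1.11 to 2.05), 1.43 (1.12 to 1.83) and 3.89 (2.33 to 6.83). There B2m at 1.245 (1.01 to 1.54), Psmb9 at 2.09 (0.979 to 4.75) and Iigp1 at 1.75 (0.915 to 3.46) were no longer called, although all 3 are among the genes higher in all sources when every cell is used.

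The low end of the ranking is cut by the hashtag library itself. The smallest total over the 3 hashtags was 503 counts in that library and 504 among these cells, and 6270 barcodes that passed the gene and mitochondrial filters were not listed at all. Their source is not known. In 6264 of them thinned to the same depth, H2-K1 stood at 216 CPM (207 to 226), H2-D1 at 413 (400.4 to 426) and B2m at 729 (712 to 747), against 183, 422 and 839.6 in the low group of Prf1-/- lung. The list of interferon-induced genes summed to 4334.5 CPM in the unlisted barcodes, against 3604, 4121 and 4798 in the groups.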

How the data were processed

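The values are raw counts of UMIs from the authors, deposited as a gene matrix and a hashtag matrix. Per the submitters' processing notes they come from Cell Ranger 6.1.2 and mm10, although version 6.0.0 stands in the file header. A cell annotation named in the labels was not used here. Counts were summed over cells after thinning without replacement to 1500 UMIs per cell, and scaled to CPM (numpy 2.4.6, scipy 1.17.1). Levels have exact Poisson and ratios exact conditional binomial intervals. For log2 ratios 1 CPM was added to both groups. Doublets of 2 sources were limited by the ratio to the second hashtag, HTODemux (Seurat 5.3.0, R 4.3.3, positive quantile 0.99) was an alternative, and doublets within a source were not called. Named genes are up to 12 on each side whose interval lies farthest from 1, all class I and peptide loading genes, Ptprc, the Fc receptors, and for each other list its 2 with most UMIs and 2 with the most extreme ratio, without mitochondrial, ribosomal and unnamed genes. The cells, the 40 lists and the contrast were chosen with earlier results of these data known. The step was tested on simulated data. In all, 26 alternatives were tried. Not every gene the rule names is printed: uncalled ones stand in their list's counts, and 1 gene is not reported here.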

Additional observations from a re-analysis of the deposited data

Results flagged for a closer look

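Cck and Spp1 were called in opposite directions in different sources, which is why they are set apart here. The ratio of Cck, high over low group of hashtag count, was 0.538 in Prf1-/- lung, where it turned to log2 ratios of 0.16 at 2500 UMIs and 0.68 with 1500 genes or more, and 1.57 (1.40 to 1.75) in Prf1-/- bone. The bone cells had far more of it, at 2771 CPM in the low group and 4344 in the high group, in 38 and 52 of 128 cells. The ratio of Spp1 was 0.655 in Prf1-/- lung, a call kept in 17 of 22 alternatives, and 1.33 (1.01 to 1.76) in WT lung, where it stood at 153 and 204 CPM. The difference between sources was not tested for either gene, and each source is 1 sample.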

How the results depend on the processing

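Over 23 of 26 alternatives that give list medians, the median log2 ratio of the class I chains ranged from 0.64 to 1.24 and that of peptide loading from 0.34 to 1.01. The counts of genes called moved past 1.5 times under 1 of them, a minimum mean of 50 CPM, to 81 higher and 85 lower, by construction, since 3053 genes were then measured. Log2 ratios turned for Hsph1 (-0.062 without thinning, -0.11 paired on RNA UMIs, -0.045 at 2500 UMIs), Mcm4 (-0.033 paired), Cck (0.16 at 2500 UMIs, 0.68 at 1500 genes or more) and Tyms (-0.20 ranked per RNA UMI). Of the alternatives, 2 were added after seeing the data. The cause was not tested. Of 26 named genes called higher, B2m, Ccl5, Cxcl10, H2-D1 and H2-K1 kept the call in all 22 alternatives tallied per gene, and of 18 called lower 0 did. The 1.5-fold rule is not among these 22, and the ratio of B2m given above falls short of it. Adding 0.1 or 5 CPM in place of 1 CPM cannot change a call, so the tallies of 22 include passes fixed in advance. Other alternatives among the 22 nearly repeat the main setting. A limit of 8% mitochondrial UMIs kept 143 of the 148 higher calls, and leaving out mitochondrial and ribosomal genes kept 147. The median of the ATF4 list ranged from -0.57 to -0.04 and that of the interferon-induced list from 0.22 to 0.73. At 3 UMIs per group, genes under 4 CPM cannot be compared. No pairing of samples was possible because the contrast is between cells of 1 sample. Cells were paired only on RNA UMIs, as an alternative. No replicate could be left out.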
